A study of Drosophila melanogaster with 4 samples.

Results

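Synaptic vesicle release genes encode the proteins that hold, prime and fuse transmitter-filled vesicles at the presynaptic terminal. The set was a list of 10 symbols, namely Sap47, alphaSnap, unc-13, Rab3, Syt1, Snap25, Syx1A, cpx, Rop and brp. A gene was kept when it was named in the array's annotation and had a value on at least 3 of 4 arrays. This left 4 of the 10 genes, Sap47, alphaSnap, unc-13 and Rab3, out of 1379 genes in all, and the 4 genes were read by 5 probes because unc-13 had a pair of them. Rop was named on the array but its spots held no value on any array. Syt1, Snap25, Syx1A, cpx and brp were found neither by symbol, synonym nor gene identifier and were not analysed here. The 5 probes therefore cover a vesicle-associated protein, a vesicle GTPase, a priming factor and a factor that recycles the fusion machinery, but none of the membrane-anchored fusion proteins, the calcium sensor or the active zone scaffold of the list.

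Heads of unmated Oregon R males, a wild-type Drosophila melanogaster strain, were compared after feeding with tetraethylammonium chloride (TEA), an organic cation that blocks potassium channels. TEA flies were kept for 7 days on normal food with 16 mg/ml TEA, and their controls for as long on normal food alone, from an age of 3 to 4 days, at 24 °C and 30 flies per vial. Per the labels' protocols, control flies of replicates 1 and 2 were held for a day less than TEA flies before treatment, although their stated age was the same. Any effect of this handling enters the ratio of TEA over control on those arrays, and so the mean over all 4. It was not tested. Each of the 4 arrays carried the RNA of 1 pool of TEA heads and 1 pool of control heads from the same parallel set of vials, with TEA in Cy5 (a red dye) in replicates 1 and 2 and in Cy3 (a green dye) in replicates 3 and 4. The design text also mentions flies taken off the drug, which were not analysed here.

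Release of a synaptic vesicle runs through docking at the active zone, priming, and calcium-triggered fusion by a complex of SNARE proteins from the vesicle and the plasma membrane. After fusion the SNARE complex is pulled apart and the vesicle membrane is retrieved by endocytosis. In flies, potassium channels end the nerve terminal's depolarisation and so limit calcium entry and release, which is why blockers such as TEA are classical tools at the neuromuscular junction. The arrays measured how much mRNA of these genes the head held, not release itself. In RNA from whole heads, fewer cells of a type and less RNA per cell cannot be told apart.

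Every value below is a log2 ratio, so that 0 is no difference and 1 is a doubling. The direction of the deposited ratio is not stated. It was taken as Cy5 over Cy3, which is likely because channel 1 carried Cy5 and channel 2 Cy3 on every array, and replicates 3 and 4 were turned to give TEA over control. Under the opposite order of the dyes every sign of the TEA contrast would be the other one. The arrays held values for 3149, 3124, 2979 and 2764 of 13824 probes in replicates 1 to 4, and 3150 probes with at least 3 values were tested. Each probe was the mean of 2 neighbouring spots, or 1 spot where the other had no value. Both spots were measured for 3099, 3088, 2931 and 2680 probes. After turning, the median of all measured probes was -0.09, -0.08, 0.25 and 0.05 in replicates 1 to 4, and 38.2%, 38.4%, 75.0% and 56.4% of measured probes lay above 0. Precision is limited by the number of arrays.

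The first comparison asked whether mRNA of the release genes differed between TEA and control heads. None of the 4 genes passed the test over all probes (limma with Benjamini-Hochberg adjustment, threshold 0.05), against 0.635% of the 3150 tested probes, 0.0952% higher and 0.54% lower. All 5 probes had a mean above 0, as 55.8% of all tested probes did, and their median was 0.26, beside 0.03 for all tested probes. This median changed with the arrays used. Without replicate 3 it was 0.02, beside -0.04 for all tested probes, and over replicates 1 and 2 alone it was -0.19, beside -0.10. Over replicates 3 and 4 alone it was 0.63, beside 0.15. It was 0.39 without replicate 1, 0.36 without replicate 2 and 0.19 without replicate 4, beside 0.06, 0.07 and 0.02. Leaving out an array unbalances the dyes, so a dye difference does not cancel in such values here or below. They therefore do not isolate what the omitted array contributed. In the fit over all 4 arrays no member had an unadjusted limma p under 0.05, which 8.98% of tested probes had. In 4 of the 5 probes both arrays with TEA in Cy3 lay above both arrays with TEA in Cy5, as in 43.3% of all probes with 4 values.

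Sap47, a vesicle-associated protein of nerve terminals, stood highest of the members. Its log2 ratio of TEA over control was -0.17 in replicate 1, 0.0075 in replicate 2, 1.21 in replicate 3 and 0.27 in replicate 4. Replicate 3 was far above the others, and the arrays with TEA in Cy5 lay below 0 or close to it. The mean was 0.33 ± 0.24 (SE, n = 4; limma adjusted p = 0.814), a 1.26-fold ratio with a 95% interval from -0.26 to 0.91 on the log2 scale. Without replicate 3 the mean was 0.03.

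Rab3, a small GTPase on synaptic vesicles that in flies helps to set how release sites are supplied with active zone protein, was low with TEA in Cy5 and high with TEA in Cy3. Its log2 ratio of TEA over control was -0.48 and -0.17 in replicates 1 and 2 and 0.56 and 0.71 in replicates 3 and 4. Both values with TEA in Cy3 lay above both with TEA in Cy5, as in 43.3% of all probes with 4 values. The mean was 0.15 ± 0.23 (SE, n = 4; limma adjusted p = 0.898), with a 95% interval from -0.40 to 0.71. Without replicate 4 it was -0.03.

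The priming factor unc-13, which makes docked vesicles ready for fusion, was read by probe A at spots 5437 and 5438 and by probe B at spots 15603 and 15604. Probe A had log2 ratios of TEA over control of -0.41, -0.33, 1.30 and 0.49 in replicates 1 to 4. Probe B had -0.27, -0.105, 1.11 and -0.22. Both probes were below 0 with TEA in Cy5 and highest in replicate 3, and they took opposite signs in replicate 4. The difference of probe A minus probe B was -0.15, -0.22, 0.18 and 0.71 in the 4 replicates. In replicate 4 the spots of probe B disagreed, at -0.72 and 0.27, while those of probe A stood at 0.58 and 0.40.

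Averaged over arrays, unc-13 was 0.26 ± 0.30 by probe A (SE, n = 4; limma adjusted p = 0.872) and 0.13 ± 0.26 by probe B (SE, n = 4; limma adjusted p = 0.932). The 95% intervals ran from -0.46 to 0.99 and from -0.49 to 0.75. Without replicate 3 the means fell below 0 in both probes, to -0.08 and -0.20. With the probes averaged and genes tested, unc-13 stood at 0.20 ± 0.21 (SE, n = 4; limma adjusted p = 0.863). In that fit, too, none of the 4 genes passed, against 0.87% of 1379 genes.

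The adaptor alphaSnap, which brings the ATPase NSF to spent SNARE complexes so that they can be taken apart and used again, had the narrowest spread. Its log2 ratio of TEA over control was -0.08, 0.006, 0.65 and 0.50 in replicates 1 to 4. Replicates 3 and 4 were close to each other and both above replicates 1 and 2. The mean was 0.27 ± 0.17 (SE, n = 4; limma adjusted p = 0.776), a 1.20-fold ratio with a 95% interval from -0.14 to 0.68. It stayed above 0 when any 1 array was left out, between 0.14 and 0.39, as Sap47 did.

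**Figure D1:**
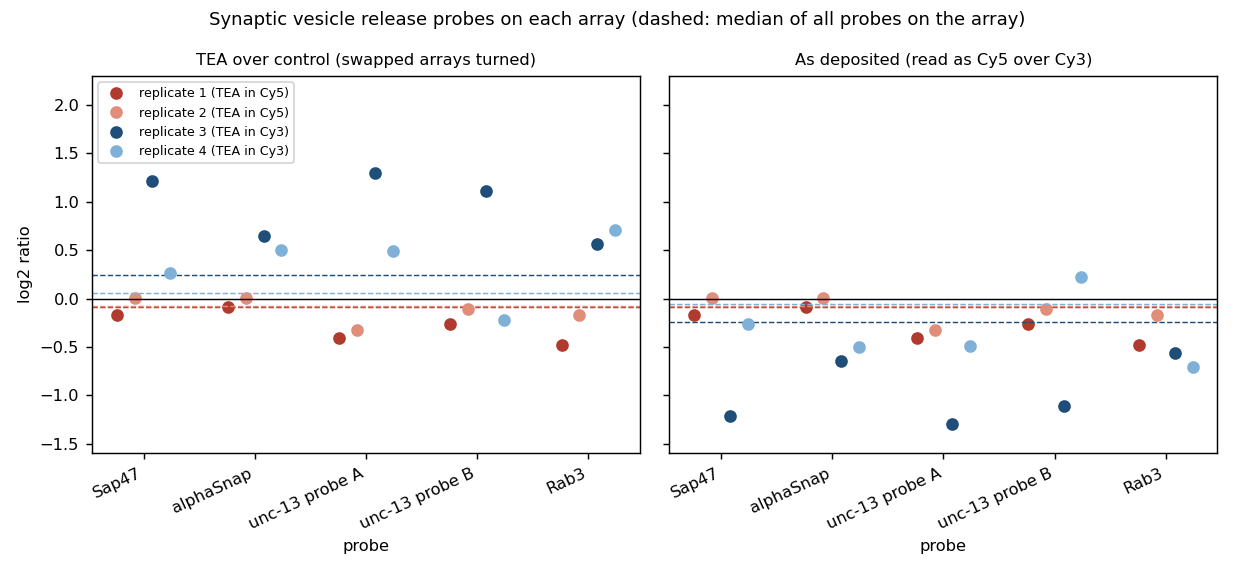
Log2 ratio of each member probe on each of the 4 arrays, turned to TEA over control (left) and as deposited (right). Points are single arrays, red with TEA in Cy5 and blue with TEA in Cy3, and dashed lines mark the median of all probes on that array; with TEA in Cy5, 8 of 10 values lie below 0, and with TEA in Cy3, 9 of 10 lie above 0.

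Each member was then set against the array it was measured on. The members' median log2 ratio of TEA over control was -0.27, -0.11, 1.11 and 0.49 in replicates 1 to 4. After subtracting the median of all measured probes it was -0.18, -0.03, 0.87 and 0.44. The members' median was thus below the middle of the array with TEA in Cy5 and above it with TEA in Cy3, while single members crossed it in replicates 1, 2 and 4. In replicate 1 they stood between the 9.46th percentile of measured probes for Rab3 and the 50.5th for alphaSnap. In replicate 3 they stood between the 79.8th percentile for Rab3 and the 97.4th for unc-13 probe A.

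Replicate 3 carried the highest value of 4 of the 5 member probes, and of 56.6% of all probes with 4 values. In replicate 4 the percentile was 93.7 for Rab3, 87.6 for alphaSnap, 87.0 for unc-13 probe A, 73.2 for Sap47 and 19.5 for unc-13 probe B. In replicate 2 it lay between 20.7 for unc-13 probe A and 62.5 for Sap47. The genes therefore did not keep an order from array to array: Rab3 was the lowest member in replicates 1 and 3 and the highest in replicate 4.

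**Figure D2:**
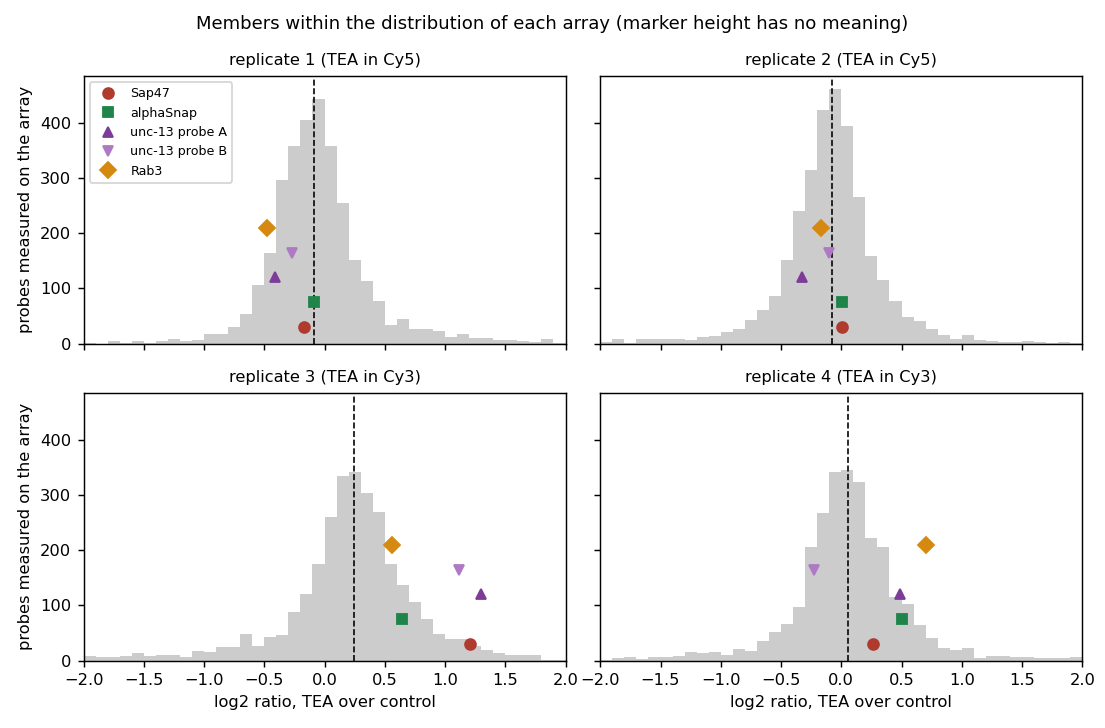
Histograms of the log2 ratio of TEA over control for all probes measured on each array, in bins of 0.1, with the median as a dashed line and the member probes as coloured markers whose height has no meaning. The members lie left of or around the median with TEA in Cy5 and, except unc-13 probe B in replicate 4, to its right with TEA in Cy3; 28, 24, 49 and 30 probes of replicates 1 to 4 lie beyond 2 in size and are not drawn.

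Duplicate spots show how well a value was read within an array, not how it varies between arrays, dyes or pools. Over the 5 probes and 4 arrays, spots of a pair differed by a median of 0.11, and 18 of 20 pairs were within 0.3 of each other. The widest gap was 0.99, for unc-13 probe B in replicate 4. Over all pairs measured on an array the median gap was between 0.10 and 0.14. The spots of Sap47 in replicate 3 stood at 1.16 and 1.26 and those of unc-13 probe A at 1.30 and 1.29, so the high values of that array were read by both spots.

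Because most member values were below 0 with TEA in Cy5 and above 0 with TEA in Cy3, the ratios were next averaged as deposited, without turning replicates 3 and 4. With the dyes balanced, a TEA difference shared by all arrays cancels in this mean for probes with 4 values. The mean, called the dye contrast below, holds the dye difference and any other difference between the arrays of each dye orientation. Per the protocols, the arrays with TEA in Cy5 were also those whose control flies were held for a day less before treatment. Dye and this handling cannot be told apart in the dye contrast. The handling does not cancel in the TEA contrast either, where it cannot be told apart from TEA. All 5 member probes had a mean below 0 on this scale, as 72.7% of all tested probes did. Their median was -0.41, beside -0.12 for all tested probes. Rab3 stood at -0.48 ± 0.12 (SE, n = 4; unadjusted p = 0.010, limma adjusted p = 0.429) and unc-13 probe A at -0.63 ± 0.19 (SE, n = 4; unadjusted p = 0.019, limma adjusted p = 0.429). Both were below 0 on all 4 arrays, as 22.0% of probes with 4 values were.

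Sap47 (-0.41 ± 0.22), alphaSnap (-0.31 ± 0.15) and unc-13 probe B (-0.32 ± 0.23) were each below 0 on 3 of 4 arrays as deposited (SE, n = 4). No member passed the adjusted threshold in this dye contrast, where limma called 0 of 3150 probes, with 353, or 11.2%, at an unadjusted p under 0.05. Centring the arrays moves the median of all probes in this contrast by over 0.1, from -0.12 to -0.01. The means relative to the array medians were then -0.36 ± 0.12 for Rab3 and -0.52 ± 0.16 for unc-13 probe A, and both probes were below the array's median on all 4 arrays, as 10.3% of probes with 4 values were. Centring brought Sap47 to -0.29 ± 0.19, alphaSnap to -0.19 ± 0.13 and unc-13 probe B to -0.20 ± 0.20. Without replicate 3, and without centring, Sap47 stood at -0.14, alphaSnap at -0.19 and unc-13 probe B at -0.05, against -0.45 for Rab3 and -0.41 for unc-13 probe A. The dyes are unbalanced without that array, so a TEA difference does not cancel in these values. For Rab3 and both unc-13 probes the dye contrast was larger in size than the TEA contrast with and without centring, a difference that was not tested.

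**Figure D3:**
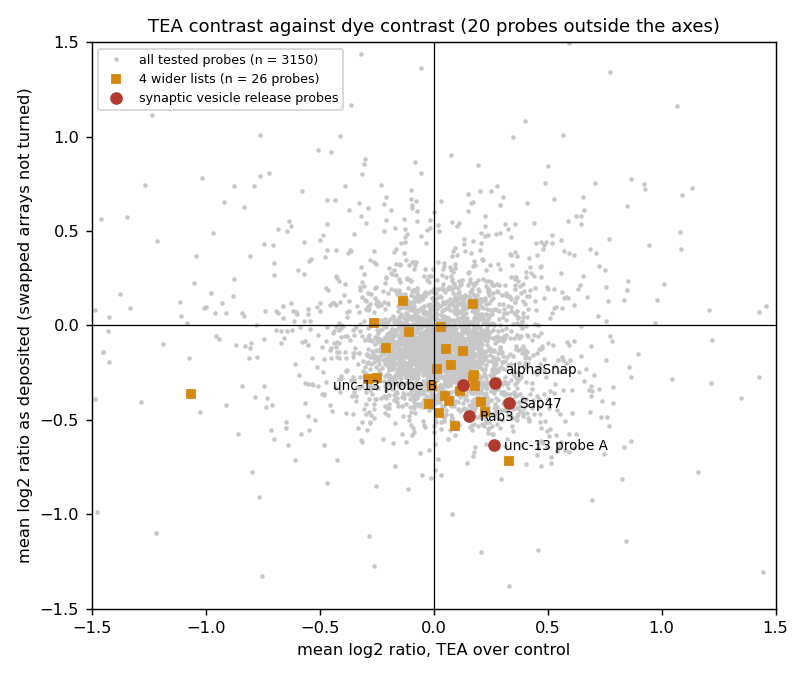
Mean log2 ratio of TEA over control (x axis) against the mean of the ratios as deposited (y axis) for all 3150 tested probes in grey, the 26 probes of 4 wider synaptic lists as orange squares and the member probes in red. The members lie between 0.13 and 0.33 on the x axis and between -0.63 and -0.31 on the y axis; 20 probes beyond 1.5 on either axis are not drawn.

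The 2 dye orientations gave opposite signs. With TEA in Cy5 alone the means were -0.08 for Sap47, -0.04 for alphaSnap, -0.37 for unc-13 probe A, -0.19 for unc-13 probe B and -0.33 for Rab3, with limma adjusted p from 0.218 to 0.865. With TEA in Cy3 alone they were 0.74, 0.58, 0.89, 0.44 and 0.63 in the same order, with limma adjusted p from 0.359 to 0.681. On arrays of 1 orientation, dye and TEA cannot be told apart. With TEA in Cy5, the handling of the control flies cannot be told apart from them either. With a dye term in the fit the member means stay where they were and their standard errors shrink, to 0.10 for alphaSnap and 0.11 for Rab3. In that fit alphaSnap had an unadjusted limma p of 0.041, and 13.6% of tested probes had one under 0.05. The limma adjusted p was then 0.351 for alphaSnap and between 0.503 and 0.843 for the other member probes.

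The wider synaptic machinery was examined through 4 further lists, which held 22 genes with 26 tested probes. None of the 26 probes passed, against 0.635% of all tested probes. Of the 26, 17 had a mean above 0, as 55.8% of all tested probes did, and 9 below, and their median was 0.05. As deposited, 23 of the 26 had a mean below 0, as 72.7% of all tested probes did. Of the 17 with 4 values, 10 were below 0 on every array, as 22.0% of all probes with 4 values were. These differences in share were not tested. For the 9 probes with 3 values the dyes are unbalanced, and a dye difference does not cancel in their TEA contrast.

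Among fusion proteins outside the members, 3 of 31 listed genes were measured and none of their probes passed. The SNARE Sec20, known for traffic between the Golgi and the endoplasmic reticulum, had -1.25, -0.89 and -1.06 in replicates 1 to 3 and no value in replicate 4. It was low on every array that held it, at -1.07 ± 0.16 (SE, n = 3; limma adjusted p = 0.089 over probes and 0.0088 over genes). It was thus called lower with TEA only when genes were the unit tested. The endosomal SNARE Vti1a was at -0.29 ± 0.17 (SE, n = 3), and Sec22, a SNARE of the early secretory pathway, at 0.07 ± 0.20 (SE, n = 4). Sec22 had -0.40 and -0.27 with TEA in Cy5 against 0.61 and 0.32 with TEA in Cy3. This order of the dye orientations, seen in most members, was also that of 43.3% of all probes with 4 values.

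Of 36 listed genes of the active zone and calcium trigger, 6 were measured by 7 probes, none called, with a median of 0.01. The neuroligins, adhesion proteins best known from the postsynaptic side, were read at -0.26 ± 0.15 for Nlg1 (SE, n = 3) and 0.17 ± 0.15 for Nlg3 (SE, n = 4). Their partner neurexin, Nrx-1, stood at -0.14 ± 0.17 (SE, n = 3). Spn, the spinophilin that acts at the presynaptic active zone, had the widest spread of the list, with -0.49, -0.29, 1.70 and 0.40 in replicates 1 to 4. Its mean was 0.33 ± 0.36 (SE, n = 4). It was highest in replicate 3, as 56.6% of all probes with 4 values were, and low with TEA in Cy5.

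Of 33 listed vesicle proteins and genes of transmitter loading, 6 were measured by 9 probes, none called, with a median of 0.17. Rab26, a vesicle-associated GTPase, stood at 0.23 ± 0.25 (SE, n = 4). Vha44, a subunit of the proton pump that energises transmitter loading, was at 0.17 ± 0.16 and 0.18 ± 0.19 by its 2 probes, which agree within their errors (SE, n = 4). The probes of the membrane protein Scamp were at 0.05 ± 0.16 and 0.17 ± 0.18 (SE, n = 4). Those of the GTPase Rab35 lay on opposite sides of 0, at -0.25 ± 0.19 (SE, n = 3) and 0.21 ± 0.22 (SE, n = 4).

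Of 30 listed genes of vesicle retrieval, 7 were measured by 7 probes, none called, with a median of 0.05. The channel-like vesicle protein fwe was the only gene of these lists with 4 values of 1 sign, from -0.41 in replicate 1 to -0.01 in replicate 4. Its mean was -0.21 ± 0.13 (SE, n = 4; limma adjusted p = 0.771). The clathrin light chain Clc stood at 0.13 ± 0.14, the clathrin-uncoating cofactor aux at -0.11 ± 0.12 and the membrane-bending protein Amph at 0.12 ± 0.20 (SE, n = 4).

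**Figure D4:**
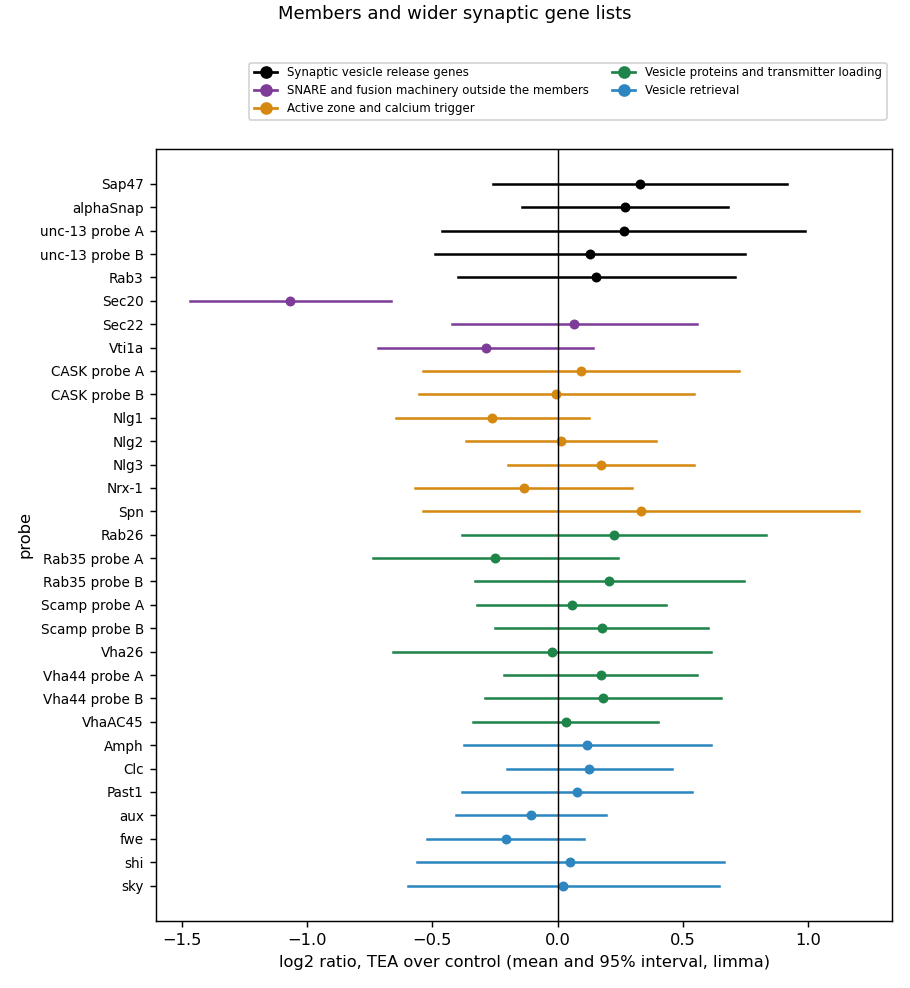
Mean log2 ratio of TEA over control (points) with its 95% interval from the limma fit (bars) for the 5 member probes and the 26 probes of the 4 wider lists, coloured by list. All member intervals include 0; Sec20, at -1.07 from 3 arrays, is the only probe drawn whose interval does not.

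Genes with the most similar pattern were sought among 1029 other probes that named 1 gene and had 4 values. Likeness was the root mean square distance over the 4 arrays from the members' median, each relative to its array's median. The nearest were St3, a sulphotransferase gene (0.05), dpr6, a cell-surface immunoglobulin protein (0.05), the GTPase Rab2 (0.06), CG42674 (0.08) and Osi19 (0.09), against a median distance of 0.52. For comparison, the members themselves lay between 0.14 for Sap47 and 0.36 for unc-13 probe B. With 4 arrays and so many candidates, a close match is a description only.

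Markers of cell types in the head could be checked only for having a value, since a ratio carries no level. Of 8 neuronal markers, 2 were named on the array and only Ddc, which makes dopamine and serotonin, was measured (-0.04 ± 0.14, SE, n = 4); nSyb, a neuronal vesicle SNARE, was named without a tested value. Of 8 glial markers only Gs2 was measured (0.46 ± 0.14, SE, n = 4; limma adjusted p = 0.408). Values were present for 4 of 11 eye markers (median 0.09), 3 of 10 muscle markers (-0.08), 5 of 9 fat body markers (0.39) and 0 of 5 haemocyte markers. None of these probes passed. Relative to the median of all probes on the array, the eye list had medians of 0.07, 0.0025, 0.05 and 0.20 in replicates 1 to 4 and the fat body list 0.67, 0.69, -0.055 and 0.19, beside -0.18, -0.03, 0.87 and 0.44 for the members. Their part in the members' values was not tested.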

How the data were processed

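The authors quantified 2-colour cDNA arrays of head RNA (10 µg per pool) with GenePix Pro 6.0 and normalised ratios with Acuity 4.0, per the labels' design text. Per that text they ignored dim spots (raw intensity below 100 and less than 2 times average background), kept spots with under 3% saturated pixels, pixel regression R2 of at least 0.6 and signal-to-noise of at least 3, and used SAM 3.0, whose settings are not given there. Each array's column as deposited holds log2 ratios; the base was read from a ceiling at 16.61, and the 8 values there were set to missing. No scanner values were used here.

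Neighbouring spots (2 per probe) were averaged, and where only 1 had a value it was used alone. Names came from the platform annotation, updated by gene identifier through RefSeq's Release 6 gene table; of 3150 tested probes 1443 had 1 gene, 14 several and 1693 none. Probes with at least 3 values were tested against 0 with limma 3.58.1 in R 4.3.3 (lmFit, eBayes, two-sided, Benjamini-Hochberg over all probes), and the script was tested on simulated data. Alternatives changed centring, scaling, the reading of the swapped arrays, a dye term, the unit tested and the filters, or left out an array. The members and lists were chosen with earlier results of these data known. The text names every member, the 4 genes with the smallest p in each of 4 wider lists, and the 5 probes nearest the members' median. Markers, nSyb and Nlg2 were named after their values were seen. Replicates are pools from separate sets of vials.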

Additional observations from a re-analysis of the deposited data

Results flagged for a closer look

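For unc-13 probe B, replicate 3 stood apart from the other arrays at a log2 ratio of TEA over control of 1.11, against values between -0.27 and -0.105 in replicates 1, 2 and 4. Its gap to the nearest array was 0.883 of the whole range, over the 95% critical value of Dixon's test for 4 values. The test used values not relative to the array medians, and the median of all measured probes was 0.25 in replicate 3. Relative to the array medians, probe B stood at -0.18, -0.03, 0.87 and -0.28 in replicates 1 to 4. There the gap was a smaller share of the range, and the test was not run. The flag therefore applies only to the values before centring. The replicate 4 value is the mean of spots that disagreed, at -0.72 and 0.27. Such a gap arises by chance in about 1 of 20 sets, and 19 sets of 4 values were examined.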

How the results depend on the processing

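None of the 4 members was called under any alternative run, and the members' median lay between 0.02 (without replicate 3) and 0.39 when 1 array was left out. With the swapped arrays not turned, the members' median was -0.41, and the means were -0.41 for Sap47, -0.31 for alphaSnap, -0.63 and -0.32 for unc-13 probes A and B and -0.48 for Rab3. The signs also turned with TEA in Cy5 only, at -0.082, -0.039, -0.37, -0.19 and -0.33. Leaving out 1 array gave ranges of -0.082 to 0.49 and -0.20 to 0.26 for unc-13 probes A and B and -0.030 to 0.37 for Rab3. Values were below 0 without replicate 3 for unc-13 and without replicate 4 for Rab3. The dyes are unbalanced in the runs with TEA in Cy5 only or with 1 array left out, so a dye difference does not cancel in them. With the swapped arrays not turned the dyes are balanced, and a TEA difference shared by all arrays cancels instead. The count of 20 called probes over the whole table became 0 with centred arrays (309 at an unadjusted p under 0.05), with the swapped arrays not turned (353), with a dye term (427), with TEA in Cy3 only (300) and with single spots (497). It became 3 with TEA in Cy5 only and 12 of 1379 with genes tested. With arrays both centred and scaled in spread the count was 16. It was 18 with values on all 4 arrays, 20 with values on at least 2 arrays and 17 with ceiling values kept. It lay between 0 and 4 with 1 array left out: 4 without replicate 1, 0 without replicate 2 (178) and replicate 4 (331), and 1 without replicate 3. In the wider lists 1 gene, Sec20, was called when genes were tested. The dye contrast called 0 probes in all its alternatives. The cause was not tested. Each array's ratio already pairs a TEA pool with its control pool, so no further replicate block was fitted. With 4 arrays, differences smaller than the members' intervals could not be resolved.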
